A study of Mus musculus with 6 samples.

Results

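The genes described here encode the enzymes of glutathione, thioredoxin and peroxide defence, measured by RNA sequencing in sorted ureteric bud cells of mouse embryos at E16.5. They were chosen by symbol only: the glutathione transferases (GST, symbols beginning Gst with a class letter and a number, and Mgst1 to Mgst3), the glutathione peroxidases (Gpx), peroxiredoxins (Prdx), thioredoxin reductases (Txnrd) and superoxide dismutases (Sod), with 11 single genes of glutathione synthesis, thioredoxin, catalase and the NRF2 response. Of the 17189 genes listed, 55 met this rule. The conditional knockout (cKO) group held 3 libraries from embryos with the genotype Hoxb7Cre-GFP+, Ash2l F/F, and the control group 3 libraries from embryos with Hoxb7Cre-GFP+, Ash2l F/+. All 6 libraries thus carried the Cre-GFP transgene under Hoxb7 control, which acts in the ureteric bud lineage, and controls carried 1 floxed allele as well. No animal received a treatment. The labels call the replicates biological, but do not say whether 1 embryo or a pool was used, so a p-value here speaks of the spread among the libraries, which may be technical.

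Glutathione is a small thiol made from glutamate, cysteine and glycine by the glutamate-cysteine ligase subunits GCLC and GCLM and by glutathione synthetase. Glutathione transferases attach it to electrophiles, glutathione peroxidases use it to reduce peroxides, and glutathione reductase restores it with NADPH. Peroxiredoxins and thioredoxins form a parallel route for peroxides, and superoxide dismutases supply the peroxide that catalase, peroxiredoxins and glutathione peroxidases remove. Many of these genes are known targets of NRF2, encoded by Nfe2l2, a transcription factor held back by KEAP1. ASH2L, the product of the floxed gene, belongs to the H3K4 methyltransferase complexes of chromatin.

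Library totals were 9620235 to 9860475 counts in the cKO group and 10359475 to 10538314 counts in the control group. Ash2l had 451, 292 and 214 counts in cKO replicates and 1933, 1853 and 1624 counts in control replicates. The library of cKO replicate 3 stood apart: of 11738 genes that exceeded 10 counts in all the others, it listed 1453 at 0 (12.4%), while no other library did so for more than 3 genes. Of the 55 genes, 9 were listed at 0 in that library, so results are given with and without it where it matters. Reads of the Y-linked genes Ddx3y, Uty and Kdm5d were at 0 in every cKO library and present in every control library, and Eif2s3y had 0, 0 and 504 counts in cKO replicates 1, 2 and 3 and 736, 815 and 439 in control replicates. Reads of the first 3 genes thus went with genotype in all 6 libraries. Genotype and the presence of these reads therefore cannot be told apart in any comparison of the groups here, including those of the 55 genes.

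The transferases were called in both directions. In cKO cells all 3 tested theta class genes (Gstt1, Gstt2 and Gstt3), the microsomal gene Mgst1 and the alpha class gene Gsta4 fell, while the mu class genes Gstm1 and Gstm7 and the omega class gene Gsto1 rose. Outside the transferases, glutathione reductase (Gsr) fell, and Gpx3, the mitochondrial thioredoxin gene Txn2 and Txnrd3 rose. No peroxiredoxin, superoxide dismutase or catalase gene was called by edgeR with all 6 libraries. The words rose and fell are used at a Benjamini-Hochberg adjusted p under 0.05 in edgeR's quasi-likelihood F-test over all 13047 genes that passed a filter on low counts.

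Of the 55 genes, 50 passed that filter, and 6 rose and 6 fell. That is 24.0% of those tested, where 7.11% of all tested genes were called (3.52% rose and 3.59% fell). The median log2 fold change was -0.08 over the 50 genes and -0.04 over all tested genes. In all 12 called genes the groups did not overlap. Over the 50 genes, 13 had every cKO library above every control and 21 every cKO library below, against 16.7% and 20.7% of all tested genes. The change was 2-fold or more in 8 of the 12 called genes. With cKO replicate 3 left out, 16 rose and 16 fell among 52 tested, where 28.5% of all tested genes were called (13.7% rose and 14.9% fell). DESeq2 on all 6 libraries gave 11 rises and 12 falls among 52 of the genes, where it called 8.05% of all genes up and 7.69% down. All 12 genes called with 6 libraries were among these 32, with the same sign. Of the 16 rises, 14 were of genes also tested with 6 libraries, and those of Gpx2 and Gpx6 were not. Gpx2, Gpx6, Gstm3, Gstp3 and Sod3 passed the filter only through cKO libraries, in which they were high. The same held for Gsta2 with 6 libraries, but not without cKO replicate 3. Gsta2, Gstm3, Gstp3 and Sod3 were also among the DESeq2 rises. In bulk RNA, fewer cells of one type and less RNA per cell cannot be told apart.

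**Figure D1:**
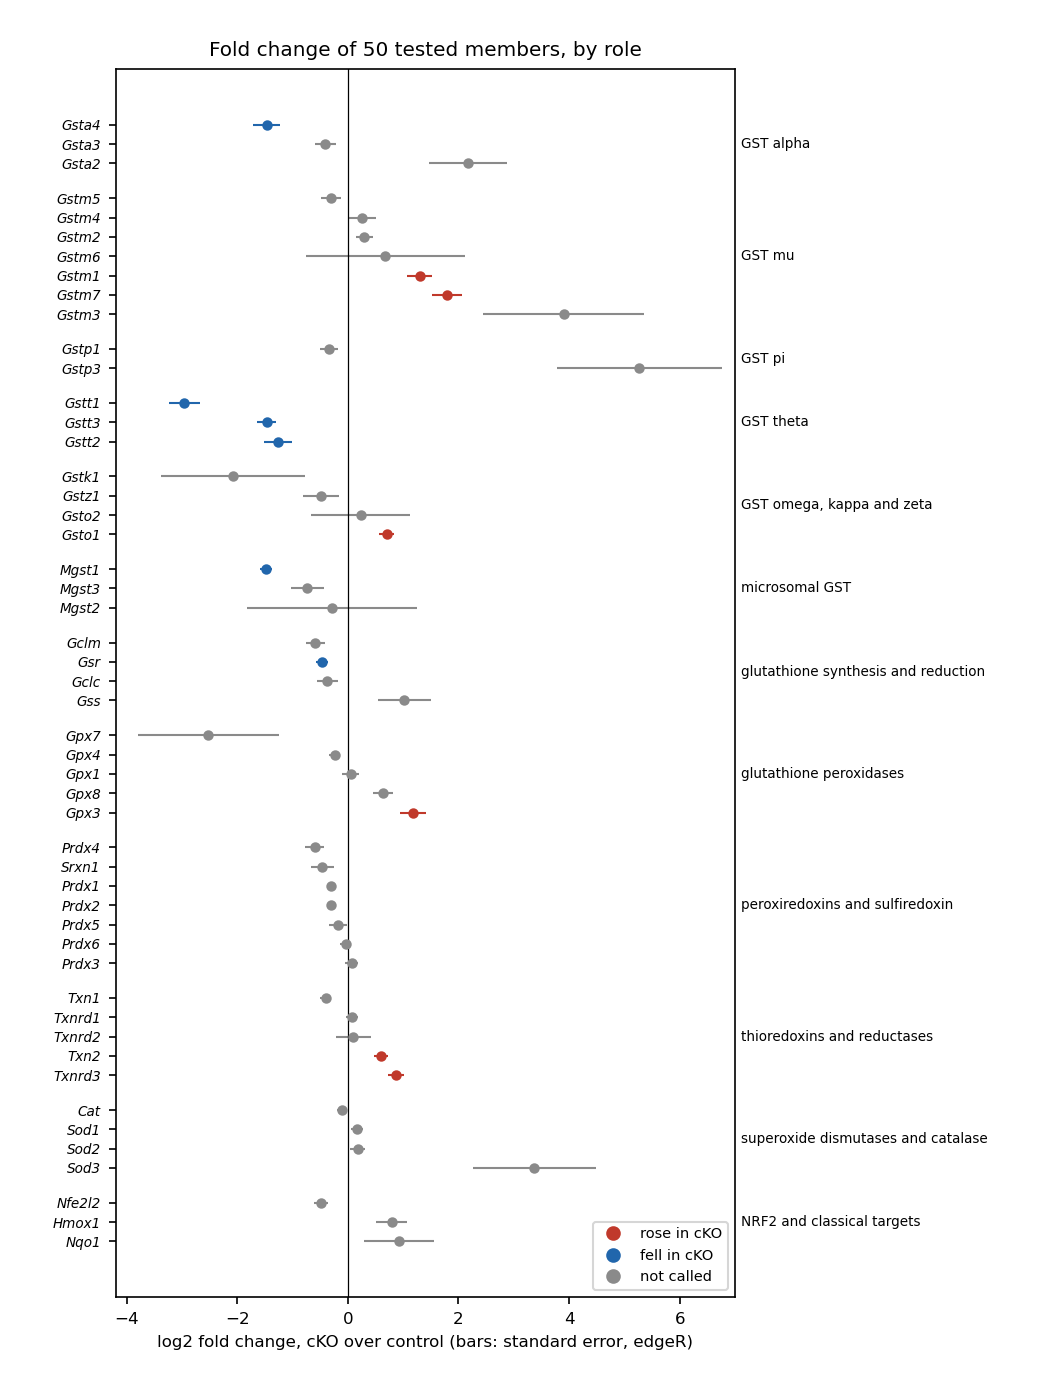
Log2 fold change of cKO over control (x axis) for the 50 tested genes, grouped by role, with bars for the standard error (SE) of the edgeR fit. The 6 genes that fell lie between -2.96 and -0.47 and the 6 that rose between 0.60 and 1.79, and the widest bars belong to genes with few counts or listed at 0 in cKO replicate 3.

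Promoter windows are shown for the adjacent theta class genes Gstt1 and Gstt3, which fell together, and for Mgst1, Prdx1 and Gclm, whose windows hold the antioxidant response element core TGACNNNGC that NRF2 with a small MAF partner is known to bind. Each window is the 250 bases before the annotated start, from RefSeq on GRCm38.p6, read 5′ to 3′ along the gene, with any match on either strand in capitals. Mgst1 and Gstt3 have 2 windows each. For Mgst1 the window with the match was chosen for display, and its other window held none. Neither window of Gstt3 held a match. Per the submitters' processing notes the counts belong to GRCm39, so these coordinates are those of the sequence table only.
Gstt1, chr10:75797732-75797981, minus strand: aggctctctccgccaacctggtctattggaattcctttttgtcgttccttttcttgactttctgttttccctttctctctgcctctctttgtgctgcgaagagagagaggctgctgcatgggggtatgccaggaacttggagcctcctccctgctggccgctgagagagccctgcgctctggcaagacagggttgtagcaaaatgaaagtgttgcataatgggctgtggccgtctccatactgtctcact
Gstt3, chr10:75781423-75781672, minus strand: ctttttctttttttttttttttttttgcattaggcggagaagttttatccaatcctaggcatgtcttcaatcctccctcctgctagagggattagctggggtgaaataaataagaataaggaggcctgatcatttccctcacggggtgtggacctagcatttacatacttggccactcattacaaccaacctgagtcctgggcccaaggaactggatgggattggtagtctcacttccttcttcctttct
Mgst1, chr6:138140277-138140526, plus strand: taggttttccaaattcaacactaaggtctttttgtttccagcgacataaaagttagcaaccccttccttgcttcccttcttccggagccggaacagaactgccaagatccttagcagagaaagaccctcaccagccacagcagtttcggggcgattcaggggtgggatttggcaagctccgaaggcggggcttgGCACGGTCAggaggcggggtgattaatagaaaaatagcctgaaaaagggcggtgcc
Prdx1, chr4:116685349-116685598, plus strand: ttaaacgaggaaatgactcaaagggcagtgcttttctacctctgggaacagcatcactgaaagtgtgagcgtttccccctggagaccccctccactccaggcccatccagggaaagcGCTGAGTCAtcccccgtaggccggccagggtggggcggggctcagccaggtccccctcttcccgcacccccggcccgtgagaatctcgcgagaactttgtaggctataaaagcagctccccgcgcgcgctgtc
Gclm, chr3:122245307-122245556, plus strand: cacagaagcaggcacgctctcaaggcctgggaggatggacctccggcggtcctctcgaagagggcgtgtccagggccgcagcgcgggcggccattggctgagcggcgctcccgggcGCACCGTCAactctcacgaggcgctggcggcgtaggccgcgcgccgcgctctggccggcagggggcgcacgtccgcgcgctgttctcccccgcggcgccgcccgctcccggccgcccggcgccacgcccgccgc
The letters of the core, searched on both strands, were not in the Gstt1 and Gstt3 windows. In Mgst1 the match GCACGGTCA began 56 bases before the start, in Prdx1 GCTGAGTCA began 133 bases before it, and in Gclm GCACCGTCA began 134 bases before it. Such matches can overlap the AP-1 motif, which also begins with TGAC. A window (300 bases, 50 of them after the start) was in the table for 48 of the 55 genes, and 10 of these (20.8%) held the core in at least 1 window. The same was true of 16.2% of the 13517 listed genes with a window. Of the called genes with a window, 1 of 6 that rose (Gstm7) and 1 of 3 that fell (Mgst1) held it. A match is a description of the sequence and not a site shown to be bound.

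In the theta class all 3 tested genes fell. Theta transferases are known for conjugating glutathione to small halogenated compounds. Gstt1 (Entrez Gene 14871) had 6.23, 4.67 and 7.18 CPM (the count scaled to library size with TMM factors) in cKO replicates 1, 2 and 3, against 53.5, 45.9 and 41.6 CPM in control replicates 1, 2 and 3. Every cKO library lay far below the lowest control. Gstt1 fell 7.78-fold (log2 fold change -2.96, SE 0.280, edgeR adjusted p = 0.00570). Gstt3 (Entrez Gene 103140) had 67.9, 72.0 and 102.4 CPM in cKO libraries and 207.8, 228.8 and 235.2 CPM in control libraries. The highest cKO value, that of replicate 3, was still under the lowest control, and Gstt3 fell by 1.47 on the log2 scale (SE 0.178, edgeR adjusted p = 0.00846). Gstt2 (Entrez Gene 14872) had 17.4, 27.0 and 17.4 CPM in cKO libraries and 51.8, 53.0 and 43.0 CPM in control libraries. It fell by 1.26 (SE 0.255, edgeR adjusted p = 0.0368). Gstt4 had no count in any cKO library and 2 counts in 1 control library, and was not tested.

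Summed over the 4 theta genes, the level per transcript length, as deposited FPKM, was 61.2 ± 10.6 FPKM in cKO cells and 188 ± 5.6 FPKM in control cells (SD, n = 3 each). Gstt3 made up most of it, at 43.4 ± 10.5 FPKM in cKO cells and 116.9 ± 7.43 FPKM in control cells. Gstt1 stood at 5.6 ± 1.18 FPKM in cKO cells and 42.5 ± 5.56 FPKM in control cells. In control cells its mean was above that of Gstt2 (28.2 ± 3.42 FPKM), and in cKO cells below it (12.1 ± 3.42 FPKM for Gstt2). The call of Gstt1 held without each library in turn, with a highest edgeR adjusted p of 0.0443 without control replicate 1. That of Gstt3 was lost without control replicate 3 (0.0564), and that of Gstt2 without cKO replicate 1 (0.105) and without control replicates 1, 2 and 3 (0.1499, 0.162 and 0.116).

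The theta genes lie side by side on chromosome 10, in the order Gstt3, Gstt1, Gstt4 and Gstt2 (RefSeq, GRCm38.p6). Their nearest protein-coding neighbours on either side are Ddt and Mif, which encode the related proteins D-dopachrome tautomerase and macrophage migration inhibitory factor. Neither was called. Ddt had 544, 700 and 766 counts in cKO libraries and 496, 410 and 394 counts in control libraries (log2 fold change 0.69, SE 0.193, edgeR adjusted p = 0.0866). Mif differed by -0.28 on the log2 scale (SE 0.129, edgeR adjusted p = 0.267). Farther out, Cabin1 (0.30, SE 0.177), Susd2 (0.94, SE 1.47), Derl3 (-0.46, SE 1.42) and Smarcb1 (0.09, SE 0.125) were not called either. Without cKO replicate 3, Susd2 rose by 1.51, Ddt rose by 0.58 and Mif fell by 0.41 on the log2 scale (edgeR adjusted p = 0.0154, 0.0243 and 0.0118). In the GRCm38 annotation the transcript of Gstt3 shares 26.0% of its 50-base windows with Gm20441, a gene model that overlaps it on the same strand, so part of its reads may be assigned to either.

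**Figure D2:**
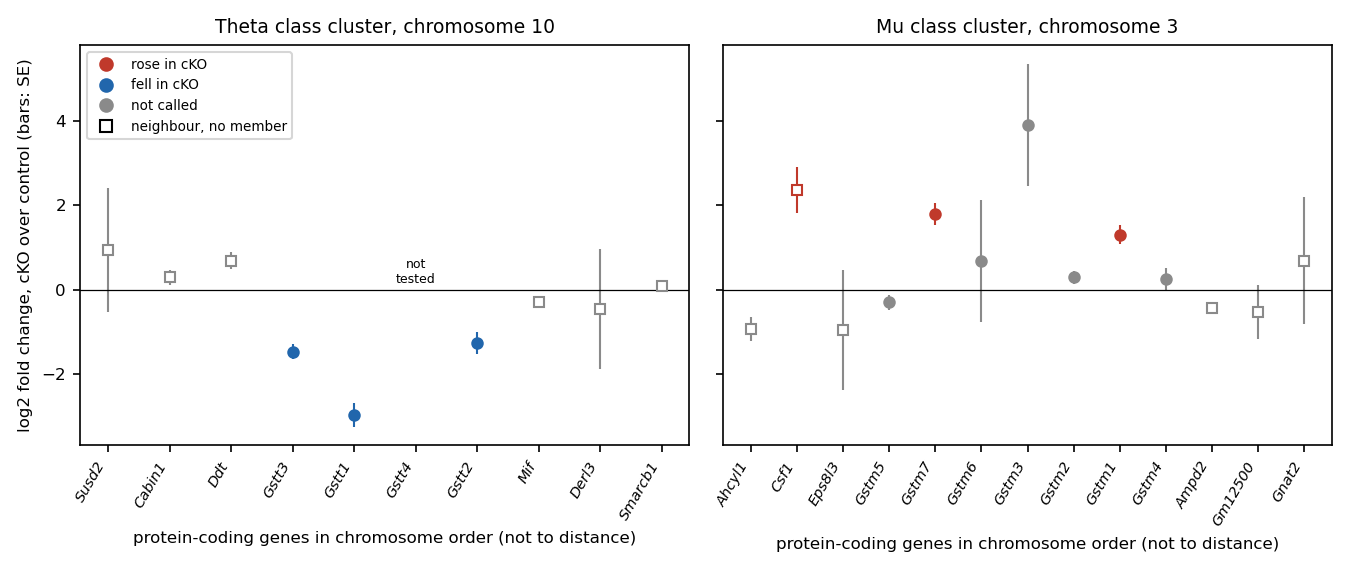
Log2 fold change of cKO over control (y axis, bars for SE) of protein-coding genes in chromosome order in the theta class cluster (left panel) and the mu class cluster (right panel), with 3 neighbours on each side as open squares. The 3 tested theta genes lie between -2.96 and -1.26 with no called neighbour, the neighbour Csf1 (2.36) is called beside the mu genes, and the mu genes run from -0.30 for Gstm5 to 3.90 for Gstm3.

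In the mu class 2 of 7 genes rose and none fell. Mu transferases are known for conjugating epoxides and other electrophiles. Gstm7 (Entrez Gene 68312) had 43.2, 59.0 and 73.3 CPM in cKO libraries and 19.8, 14.2 and 16.8 CPM in control libraries. The groups were well apart, and Gstm7 rose 3.45-fold (log2 fold change 1.79, SE 0.268, edgeR adjusted p = 0.0147). Gstm1 (Entrez Gene 14862) had 182.5, 178.8 and 305.6 CPM in cKO libraries and 82.9, 92.3 and 95.4 CPM in control libraries. The highest value was that of cKO replicate 3, but replicates 1 and 2 were also above every control. Gstm1 rose by 1.30 on the log2 scale (SE 0.227, edgeR adjusted p = 0.0236), and by 0.99 without cKO replicate 3.

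The other 5 mu genes were not called by edgeR with 6 libraries, while DESeq2 called Gstm3 up. Gstm2, the most abundant of the class per length, had 212 ± 25.9 FPKM in cKO cells and 168 ± 29.8 FPKM in control cells (SD, n = 3 each), with overlapping groups. Gstm5 had 67.6 ± 11.4 FPKM in cKO cells and 80.9 ± 9.13 FPKM in control cells. In CPM its groups lay apart only narrowly (68.5 in cKO replicate 2 and 69.7 in control replicate 2). Its log2 fold change of -0.30 was the only negative one of the class. Gstm3 had 54, 37 and 131 counts in cKO libraries and 2, 0 and 13 counts in control libraries. Every cKO value exceeded every control, but the edgeR adjusted p was 0.171, and 0.0286 without cKO replicate 3. It passed the filter only through the cKO libraries, in which it was high, so no rise is read from these tests. Gstm6 had 109, 159 and 0 counts in cKO libraries and 75, 48 and 52 counts in control libraries, and it rose by 1.26 on the log2 scale without cKO replicate 3, where it was listed at 0 (edgeR adjusted p = 0.0161). Gstm4 had a log2 fold change of 0.26 (SE 0.255). Over the whole class the summed level was 531 ± 87.0 FPKM in cKO cells and 349 ± 37.1 FPKM in control cells. Mu transcripts resemble each other and their pseudogenes: 28.8% of the 50-base windows of Gstm3 and 23.1% of those of Gstm1 occur in other genes, but 0 of those of Gstm7. Counts of Gstm3 and Gstm1 are uncertain to that extent. The call of Gstm7 was lost without cKO replicate 2 (edgeR adjusted p = 0.0654) and without control replicates 1, 2 and 3 (0.0658, 0.0807 and 0.0863). That of Gstm1 was lost without the same 4 libraries (0.0537, 0.117, 0.108 and 0.109).

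Among the microsomal transferases, which are unrelated in sequence to the cytosolic ones and sit in membranes, Mgst1 fell. Mgst1 (Entrez Gene 56615) had 155.8, 167 and 132.9 CPM in cKO libraries and 437.7, 407.7 and 422.2 CPM in control libraries. The libraries of each group lay close together, and the groups were far apart. It fell 2.78-fold (log2 fold change -1.48, SE 0.111, edgeR adjusted p = 0.00409), the smallest p of the 50 genes. The call held without each library in turn (highest adjusted p 0.0350, without control replicate 1). In control cells Mgst1 was the most abundant transferase gene per length, at 348.3 ± 10.6 FPKM, against 128.8 ± 14.7 FPKM in cKO cells, where Gstm2 and Gstm1 stood above it. Mgst3 had 47.9, 50.1 and 22.9 CPM in cKO libraries and 68.5, 70.9 and 61.3 CPM in control libraries. No cKO library reached the lowest control, but the gene was not called (edgeR adjusted p = 0.214), and it fell by 0.46 without cKO replicate 3 (0.0349). Mgst2 had 11, 27 and 0 counts in cKO libraries and 18, 4 and 26 counts in control libraries, with overlap.

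In the alpha class Gsta4 fell, and edgeR called no other gene with 6 libraries. DESeq2 also called Gsta2 up (DESeq2 adjusted p = 0.0122). Gsta4 (Entrez Gene 14860), known for conjugating hydroxynonenal, a product of lipid peroxidation, had 24.8, 36.4 and 20.6 CPM in cKO libraries and 66.9, 85.0 and 74.5 CPM in control libraries. All cKO libraries were below all controls. Gsta4 fell 2.77-fold (log2 fold change -1.47, SE 0.251, edgeR adjusted p = 0.0217). Gsta3 had 28.7, 30.1 and 30.1 CPM in cKO libraries and 35.5, 43.9 and 39.0 CPM in control libraries, without overlap, but was not called (edgeR adjusted p = 0.256). Gsta2 had 87, 87 and 124 counts in cKO libraries and 28, 32 and 9 counts in control libraries. It was above every control in every cKO library, with an edgeR adjusted p of 0.124, and of 0.0117 without cKO replicate 3. With 6 libraries Gsta2 passed the filter only through the cKO libraries, in which it was high, so no rise is read from those 6-library tests. Of its 50-base windows 64.2% occur in other genes, 44.8% in Gsta1 alone, so counts of the pair are uncertain. Gsta1 was not tested, with 7, 4 and 0 counts in cKO libraries and none in control libraries. The call of Gsta4 was lost without cKO replicate 1 (edgeR adjusted p = 0.0769) and without control replicates 1, 2 and 3 (0.0781, 0.109 and 0.0998).

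In the smaller classes, Gsto1 (Entrez Gene 14873), an omega transferase that reduces dehydroascorbate and mixed disulfides, had 90.1, 85.4 and 82.0 CPM in cKO libraries and 48.5, 57.8 and 52.5 CPM in control libraries. It rose 1.62-fold (log2 fold change 0.70, SE 0.137, edgeR adjusted p = 0.0328). Gsto2 was at 28, 14 and 12 counts in cKO libraries and 14, 14 and 20 counts in control libraries. In the pi class edgeR called no gene with 6 libraries, while 1 (Gstp3) had an unadjusted p under 0.05 and was called up by DESeq2. The pi class gene Gstp1 had 125.5 ± 24.7 FPKM in cKO cells and 154 ± 4.23 FPKM in control cells (SD, n = 3 each). It was not called with 6 libraries (edgeR adjusted p = 0.256), and fell by 0.51 without cKO replicate 3 (0.00607), but it shares 62.3% of its 50-base windows with Gstp2. Gstp2 itself had 1, 9 and 0 counts in cKO libraries and none in control libraries, and was not tested. Gstp3 had 18, 12 and 21 counts in cKO libraries and 1, 0 and 0 counts in control libraries. Its groups did not overlap, with an edgeR adjusted p of 0.0872 (0.0146 without cKO replicate 3). It passed the filter only through the cKO libraries, in which it was high, so no rise is read from these tests. Gstk1, a kappa transferase of mitochondria and peroxisomes, had 44, 69 and 0 counts in cKO libraries and 145, 199 and 159 counts in control libraries, and fell by 1.51 without cKO replicate 3 (edgeR adjusted p = 0.00364). Gstz1, the zeta enzyme of tyrosine breakdown, was not called (log2 fold change -0.48, SE 0.323). The call of Gsto1 was lost without every library other than cKO replicate 3, with edgeR adjusted p between 0.103 without cKO replicate 1 and 0.157 without control replicate 3.

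**Figure D3:**
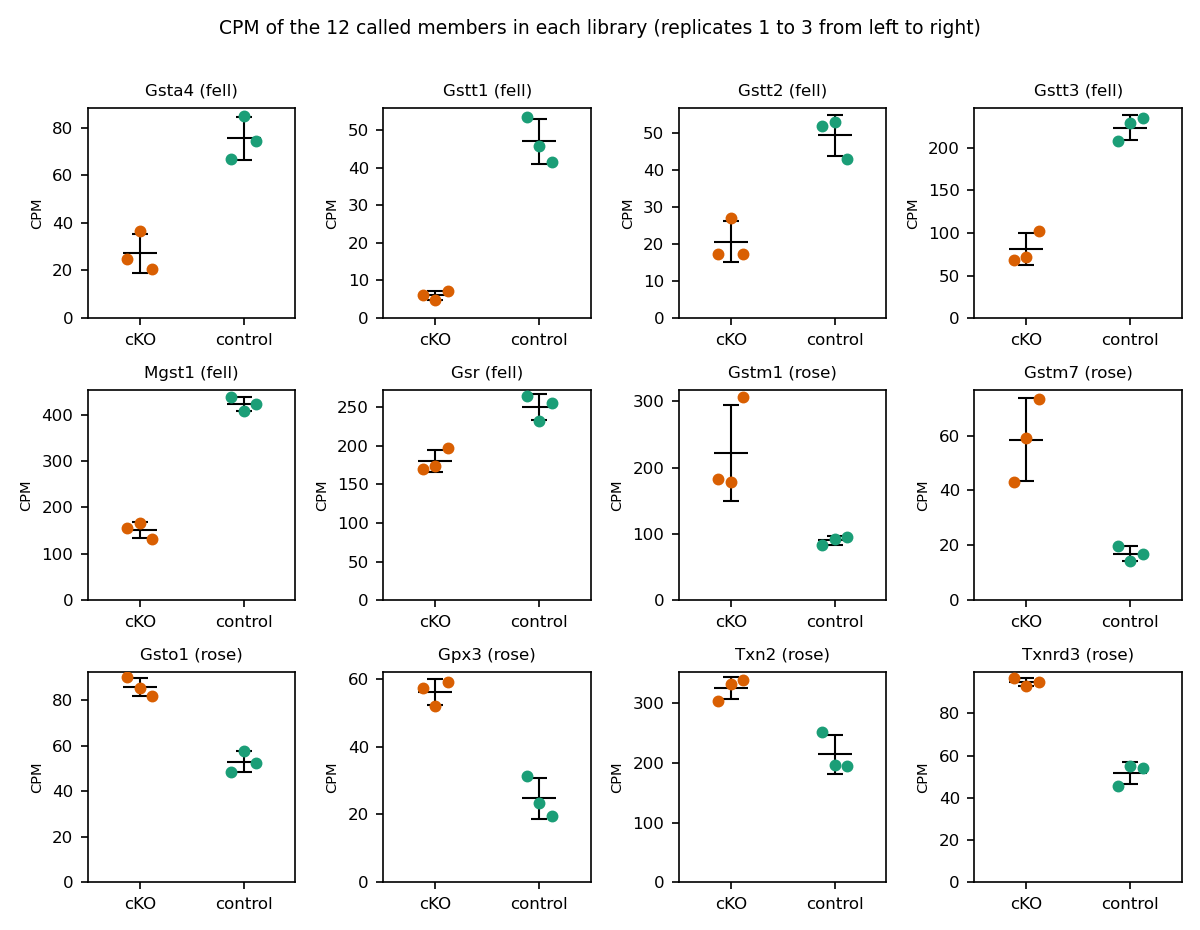
CPM in each of the 3 cKO and 3 control libraries for the 12 called genes, with the mean as a horizontal bar and the SD as whiskers; axes start at 0. In every panel the groups are apart, from Gstt1 (6.03 in cKO against 47.0 in control cells) to Gstm7 (58.5 against 16.9).

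Glutathione supply showed a fall of the reductase and mixed values for synthesis. Gsr (Entrez Gene 14782), which regenerates glutathione with NADPH, had 170.5, 173.4 and 196.9 CPM in cKO libraries and 264.1, 231.7 and 255.1 CPM in control libraries. It fell by 0.47 on the log2 scale (SE 0.105, edgeR adjusted p = 0.0460), a change of 1.39-fold. Gclm, the modifier subunit of the first and rate-limiting step, had 50.6, 47.1 and 65.0 CPM in cKO libraries and 87.2, 82.8 and 74.5 CPM in control libraries. Its groups did not overlap, with an edgeR adjusted p of 0.0953, and it fell by 0.75 without cKO replicate 3 (0.00186). Gclc, the catalytic subunit, was at 97.4 ± 16.3 CPM in cKO cells and 125.5 ± 23.1 CPM in control cells, with overlapping groups. Gss, the second enzyme of synthesis, had 914, 1149 and 277 counts in cKO libraries and 420, 365 and 422 counts in control libraries. Replicates 1 and 2 of the cKO group were above every control and replicate 3 below every control. The edgeR adjusted p was 0.270, and Gss rose by 1.42 without cKO replicate 3 (2.36e-05). Exons of Gss overlap Acss2 on the opposite strand in the GRCm38 annotation, and whether reads were counted by strand is not stated in these sources. Such overlaps also exist for Gclm, Gstm5, Gstz1, Prdx2, Prdx5 and Txnrd2. Acss2 had 202, 236 and 453 counts in cKO libraries and 63, 85 and 124 counts in control libraries. The part of such overlap in the Gss counts was not tested. The call of Gsr was lost without every library other than cKO replicate 3 (lowest edgeR adjusted p 0.112, without control replicate 2, and highest 0.191, without control replicate 3). With all 6 libraries it was also lost with upper-quartile factors (edgeR adjusted p = 0.0526) and with no filter on low counts (0.0546), and with limma on log2(FPKM + 0.1) (0.0522) and on unfiltered log2(FPKM + 1) (0.0591).

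Among the glutathione peroxidases, Gpx3 rose. Gpx3 (Entrez Gene 14778) encodes the secreted plasma enzyme, a selenoprotein for which kidney tubules are the known main source. It had 57.2, 51.8 and 59.1 CPM in cKO libraries and 31.3, 23.5 and 19.6 CPM in control libraries. The lowest cKO value was well above the highest control, and Gpx3 rose 2.26-fold (log2 fold change 1.18, SE 0.229, edgeR adjusted p = 0.0325). Gpx1, the cytosolic enzyme and the most abundant of the family, had 278.3 ± 45.8 FPKM in cKO cells and 263 ± 25.8 FPKM in control cells, with overlapping groups. Gpx4, which reduces lipid hydroperoxides in membranes and guards against ferroptosis, had 134.4 ± 6.63 FPKM in cKO cells and 154.6 ± 14.2 FPKM in control cells. Its log2 fold change of -0.24 (SE 0.108) was not called (edgeR adjusted p = 0.240), and 61.7% of its 50-base windows recur in the pseudogene Gpx4-ps2. Gpx8 and Gpx7, the enzymes of the endoplasmic reticulum, had fold changes of opposite sign. Gpx8 had 1318, 1329 and 920 counts in cKO libraries and 808, 830 and 746 counts in control libraries (edgeR adjusted p = 0.0805, and a rise of 0.80 without cKO replicate 3, 0.000235). Gpx7 had 39, 32 and 0 counts in cKO libraries and 148, 151 and 129 counts in control libraries (edgeR adjusted p = 0.304, and a fall of 1.94 without cKO replicate 3, 0.000850). Gpx2, known from the gut epithelium, and Gpx6, known from the olfactory epithelium, were below the filter, with 38, 40 and 0 and with 15, 25 and 0 counts in cKO libraries against 1, 8 and 0 and 0, 3 and 0 counts in control libraries. Without cKO replicate 3 they passed the filter only through the cKO libraries in which they were high, so no test is given for them. The call of Gpx3 was lost without every library other than cKO replicate 3 (lowest edgeR adjusted p 0.0651, without control replicate 1, and highest 0.149, without control replicate 2).

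In the thioredoxin system Txn2 and Txnrd3 rose. Txn2 (Entrez Gene 56551), the mitochondrial thioredoxin, had 303.5, 331.6 and 338.0 CPM in cKO libraries and 250.9, 195.9 and 194.6 CPM in control libraries. It rose 1.52-fold (log2 fold change 0.60, SE 0.127, edgeR adjusted p = 0.0410). Txn1, the cytosolic one, had 183.7, 182.8 and 200.2 CPM in cKO libraries and 275.0, 233.5 and 240.1 CPM in control libraries. Its groups did not overlap, but edgeR did not call it with 6 libraries (log2 fold change -0.40, SE 0.104, edgeR adjusted p = 0.0687). DESeq2 called Txn1 down, and it fell by 0.45 without cKO replicate 3 (edgeR adjusted p = 0.00701). Txnrd3 (Entrez Gene 232223), a reductase of thioredoxin and glutathione known mainly from testis, had 96.9, 92.7 and 94.8 CPM in cKO libraries and 45.7, 55.3 and 54.4 CPM in control libraries. Its groups did not overlap, and it rose 1.83-fold (log2 fold change 0.87, SE 0.137, edgeR adjusted p = 0.0168). The cytosolic reductase Txnrd1 was at 40.5 ± 0.859 FPKM in cKO cells and 37.3 ± 3.39 FPKM in control cells, and the mitochondrial Txnrd2 at 14.4 ± 3.06 FPKM in cKO cells and 13.1 ± 3.78 FPKM in control cells (SD, n = 3 each). Both had overlapping groups. The calls of Txn2 (edgeR adjusted p at least 0.0513, without control replicate 1, and at most 0.182, without control replicate 3) and Txnrd3 (between 0.0615 without cKO replicate 1 and 0.0863 without control replicate 3) were lost without every library other than cKO replicate 3.

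Prdx1 was the most abundant gene of the set per length in both groups. None of the 6 peroxiredoxins and not sulfiredoxin (Srxn1), which restores overoxidised peroxiredoxins, was called with 6 libraries by edgeR. At an unadjusted p under 0.05 the same fit gave 3 of the 7, all lower in cKO, where 11.1% of all tested genes were lower and 11.9% higher at that threshold. By adjusted p, DESeq2 called the same 3 genes down (Prdx1, Prdx2 and Prdx4). Prdx1, a cytosolic enzyme, had 692 ± 42.7 FPKM in cKO cells and 830 ± 26.0 FPKM in control cells (SD, n = 3 each), with no overlap and a log2 fold change of -0.30 (SE 0.0792, edgeR adjusted p = 0.0711). Prdx2 had 260 ± 5.28 FPKM in cKO cells and 310.7 ± 16.1 FPKM in control cells, again without overlap (log2 fold change -0.30, SE 0.0812, edgeR adjusted p = 0.0782). Prdx4, of the endoplasmic reticulum, had 91.8, 106 and 69.7 CPM in cKO libraries and 144.4, 127.3 and 133.6 CPM in control libraries (edgeR adjusted p = 0.0921). Without cKO replicate 3 these fell by 0.31, 0.29 and 0.46 on the log2 scale, with edgeR adjusted p = 0.0365, 0.0444 and 0.0121. Mitochondrial Prdx3 (log2 fold change 0.07, SE 0.115) and Prdx6 (-0.04, SE 0.0944) had overlapping groups, as did Prdx5 (-0.18, SE 0.169). Srxn1 was at 36.3 ± 7.32 CPM in cKO cells and 50.03 ± 3.01 CPM in control cells (edgeR adjusted p = 0.239).

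**Figure D4:**
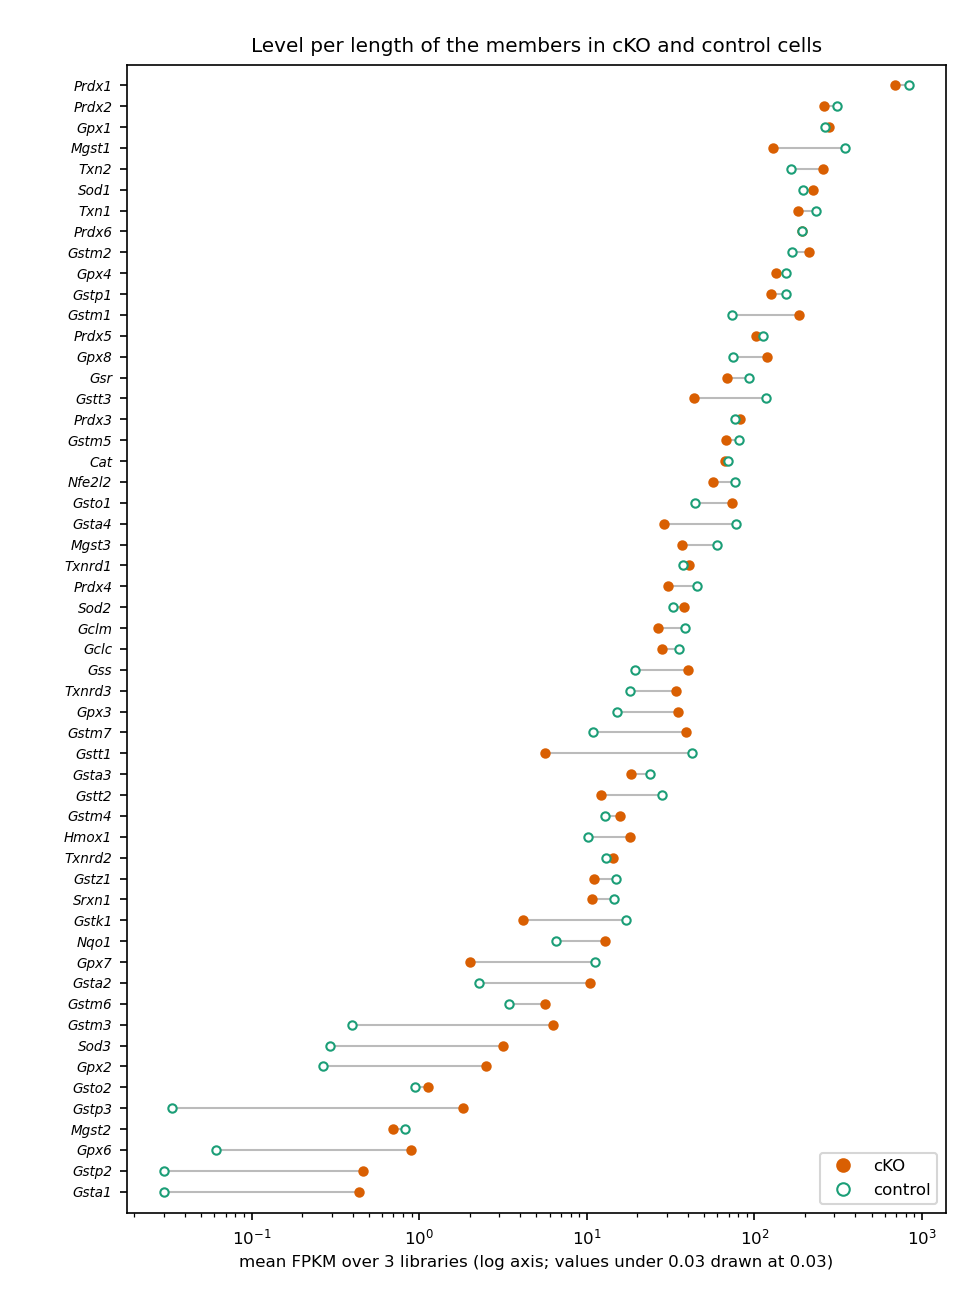
Mean FPKM over 3 libraries (x axis, log scale) in cKO cells (filled) and control cells (open) for the 54 genes with a mean of at least 0.1 FPKM over all libraries, in order of that mean. Prdx1 is highest at 692 in cKO and 830 in control cells, while Gstt1 lies at 5.6 in cKO and 42.5 in control cells and Mgst1 at 128.8 in cKO and 348.3 in control cells.

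No superoxide dismutase or catalase gene was called with 6 libraries by edgeR; 1 of the 4 had an unadjusted p under 0.05, and DESeq2 called that one, Sod3, up. Sod1, the cytosolic enzyme, had 132.5, 152.7 and 135.5 CPM in cKO libraries and 130.4, 119.5 and 127.3 CPM in control libraries (log2 fold change 0.16, SE 0.109, edgeR adjusted p = 0.459), with every cKO value above every control. Part of the Sod1 sequence (23.1% of its 50-base windows) recurs in other genes. Sod2, the mitochondrial enzyme, was at 143 ± 22.8 CPM in cKO cells and 127 ± 2.24 CPM in control cells, with overlap. Cat, the peroxisomal catalase, was at 168 ± 3.70 CPM in cKO cells and 181 ± 3.21 CPM in control cells (SD, n = 3 each), without overlap but with a difference of -0.11 on the log2 scale (SE 0.0877, edgeR adjusted p = 0.535). Sod3, the secreted enzyme, had 79, 35 and 76 counts in cKO libraries and 4, 14 and 1 counts in control libraries. Every cKO library was above every control, but the edgeR adjusted p was 0.129 (0.0113 without cKO replicate 3). Sod3 passed the filter only through the cKO libraries, in which it was high, so no rise is read from these tests.

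NRF2 itself and its classical targets were not called with 6 libraries by edgeR; at an unadjusted p under 0.05, 1 of the 3 was higher (Hmox1) and 1 lower (Nfe2l2), and DESeq2 called Nfe2l2 down. Nfe2l2 had 139.8, 120.4 and 156.1 CPM in cKO libraries and 190.5, 210.0 and 182.6 CPM in control libraries. The groups did not overlap (log2 fold change -0.49, SE 0.129, edgeR adjusted p = 0.0745), and it fell by 0.59 without cKO replicate 3 (0.00206). Hmox1, the haem-degrading oxygenase, had 23.7, 37.0 and 23.4 CPM in cKO libraries and 16.6, 16.6 and 15.4 CPM in control libraries (log2 fold change 0.79, SE 0.289, edgeR adjusted p = 0.163). It rose by 0.90 without cKO replicate 3 (0.0127). Nqo1, a quinone reductase often read as a marker of NRF2 activity, had 88, 217 and 515 counts in cKO libraries and 146, 200 and 103 counts in control libraries. Its 3 cKO libraries lay below, above and far above the control values, and the log2 fold change was 0.92 with all libraries (SE 0.629) and 0.09 without cKO replicate 3.

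Other genes of these pathways were taken from lists chosen by function. Of 16 tested regulators and partners of NRF2, none was called by edgeR with 6 libraries, with a median log2 fold change of -0.07 (-0.04 over all tested genes). At an unadjusted p under 0.05, 2 were lower (Keap1 and Sqstm1), and DESeq2 called 1, Sqstm1, down. Without cKO replicate 3 edgeR called 5 of the 16: Keap1, the NRF2 inhibitor (-0.60), Sqstm1 (-0.40), Sesn1 (-1.29) and Nfe2l3 (-1.69) fell, and Sesn2 (0.91) rose. In that test 28.5% of all tested genes were called. Of 20 tested other NRF2 target genes, 4 rose and none fell with 6 libraries, with a median of 0.40. With 6 libraries 3.52% of all tested genes rose and 3.59% fell. Akr1c13, an aldo-keto reductase, had 775, 964 and 817 counts in cKO libraries and 112, 144 and 88 counts in control libraries (log2 fold change 2.96, SE 0.235, edgeR adjusted p = 0.00440). Ftl1, the ferritin light chain, was at 4362 ± 262 CPM in cKO cells and 2884 ± 216.7 CPM in control cells (0.60, SE 0.0898). Aldh1a1, a retinaldehyde dehydrogenase, rose by 1.84 (SE 0.273), and Gdf15, a stress-induced hormone, had 5827, 5647 and 5635 counts in cKO libraries and 208, 622 and 839 counts in control libraries (3.42, SE 0.469). Aldh1a1 and Gdf15 also answer to pathways other than NRF2. In the test without cKO replicate 3, 8 of these 20 rose and 4 fell, where 13.7% of all tested genes rose and 14.9% fell. Among the called genes of this list, chosen after their values were seen, were the cystine transporter gene Slc7a11 (2.03) and the ferritin heavy chain gene Fth1 (-0.34).

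Genes that supply NADPH were called in both directions, 1 up and 2 down of 19 tested (median -0.03). Over all tested genes, 3.52% rose and 3.59% fell with 6 libraries. Idh1, the cytosolic isocitrate dehydrogenase, rose by 0.73 (SE 0.160, edgeR adjusted p = 0.0452). Idh2, its mitochondrial counterpart, had 3822, 4481 and 3234 counts in cKO libraries and 7005, 7019 and 6391 counts in control libraries, and fell by 0.76 (SE 0.135, edgeR adjusted p = 0.0244). Tkt, the transketolase of the pentose phosphate pathway, fell by 0.60 (SE 0.0909). Of 27 tested glutaredoxins and thioredoxin-fold proteins, 2 rose, Glrx (1.65, SE 0.333) and Txndc16 (0.96, SE 0.192), and none fell (median 0.13). Of 15 tested oxidant producers, 2 rose: Duoxa2, a maturation factor of the dual oxidase DUOX2 (4.50, SE 0.765), and Ero1a, which makes peroxide during disulfide formation (1.05, SE 0.134, edgeR adjusted p = 0.00940). The median of that list was 0.75. Duoxa2 had 128, 109 and 276 counts in cKO libraries and 11, 3 and 9 counts in control libraries. It passed the filter only through the cKO libraries, so its call is given as a description only. With 6 libraries no gene was called by edgeR among 21 tested genes of glutathione turnover and transport and 12 of selenoprotein synthesis. At an unadjusted p under 0.05 these gave 2 higher and 1 lower, and 2 higher and 1 lower, and DESeq2 called 2 and 3 genes, all up. Over all tested genes these shares were 11.9% higher and 11.1% lower, and DESeq2 called 8.05% up and 7.69% down. With cKO replicate 3 left out, edgeR called 4 turnover genes up and 1 down, and 3 genes of selenoprotein synthesis up. In that test 1 of 20 genes of NADPH supply rose and 6 fell, 6 of 28 glutaredoxins and thioredoxin-fold proteins rose and 2 fell, and 4 of 16 oxidant producers rose and 1 fell. Over all tested genes in that test, 28.5% were called (13.7% rose and 14.9% fell). Of the called genes named here from these lists, Akr1c13 alone was called without each library in turn, and Ftl1, Aldh1a1, Gdf15, Idh2, Glrx and Ero1a were called in 2 to 4 of these 6 tests. Tkt, Idh1, Txndc16 and Duoxa2 were called in 1 of them, which was that without cKO replicate 3.

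Markers of cell types moved in the same libraries. Of 15 ureteric epithelium markers, all tested, 4 fell (Hoxb7, Gata3, Calb1 and Epcam) and none rose. Each was called in 2 to 5 of the 6 tests that leave out a library. At an unadjusted p under 0.05, 10 of the 15 were lower, DESeq2 called 8 down, and 7 fell without cKO replicate 3. None was called up in these tests. Over all tested genes 3.59% fell with 6 libraries, 11.1% were lower at that unadjusted p, DESeq2 called 7.69% down, and 14.9% fell without cKO replicate 3. The summed level of the markers was 5992 to 6989 CPM in cKO libraries and 9402 to 10355 CPM in control libraries, so markers of the labelled tissue were present in both groups. The 11 intercalated cell markers summed to 112 to 159 CPM in cKO libraries and 293 to 509 CPM in control libraries. Foxi1, their defining factor, had 4, 25 and 0 counts in cKO libraries and 931, 1497 and 632 counts in control libraries. Of 7 tested, 2 fell, Foxi1 and Slc4a9, called in 2 and 3 of the 6 tests that leave out a library. Both passed the filter only through control libraries, in which they were high. At an unadjusted p under 0.05, 6 of the 7 were lower, and DESeq2 called 5 markers down. Without cKO replicate 3, 6 of 10 fell, some of which passed the filter only through control libraries. Rhcg (89.5 CPM in cKO and 118 CPM in control cells) and Kit (37.8 and 61.6 CPM) made up most of the cKO sum, and neither was called. Markers of nephron and proximal tubule summed to 70.6 to 76.3 CPM in cKO libraries and 32.3 to 38.8 CPM in control libraries, and 0 of the 6 tested were called by edgeR with 6 libraries (3 higher at an unadjusted p under 0.05, and 3 by DESeq2). These 3 were Lrp2 (14.9 CPM in cKO and 2.78 CPM in control cells), Slc34a1 (13.7 and 4.33 CPM) and Cited1 (14.3 and 4.90 CPM), each higher in every cKO library than in every control. Without cKO replicate 3 edgeR called 4 of 8 up, these 3 and Slc22a6. Slc22a6 had 107, 99 and 0 counts in cKO libraries and 8, 16 and 3 counts in control libraries. In that test it passed the filter only through the cKO libraries, in which it was high, so no rise is read for it. Slc5a2, the highest of these markers in control cells, was called in neither test (17.5 CPM in cKO and 18.9 CPM in control cells). Podxl was not called either (2.27 and 1.13 CPM). Mean levels of Hnf4a (0.476 and 0.999 CPM), Wt1 (0.339 and 0.748 CPM) and Slc12a1 (0.644 and 1.02 CPM) were lower in cKO cells. Nphs1 had 2, 0 and 0 counts in cKO libraries and none in control libraries, and Six2 had 0, 7 and 0 counts in cKO libraries and 2, 0 and 0 in control libraries. Erythroid markers, from cells known to be rich in Prdx2 and Cat, summed to 0 to 39.3 CPM in cKO libraries, and to 405 CPM in control replicate 3 and at most 2.75 CPM in the other control libraries. Macrophage markers summed to 60.2 to 115 CPM in cKO libraries and 45.4 to 93.1 CPM in control libraries. Ptprc, the highest of them, was lower in cKO cells (39.8 CPM and 46.8 CPM in control cells), and Cd68 was higher (16.3 and 3.98 CPM). Neither was called by edgeR. DESeq2 called Cx3cr1 up, with 20, 22 and 186 counts in cKO libraries and 9, 3 and 2 counts in control libraries. It passed the filter only through the cKO libraries, in which it was high. Stromal markers summed to 2.19 to 24.7 CPM in cKO libraries and 10.3 to 27.6 CPM in control libraries, and endothelial markers summed to 25.1 to 29.5 CPM in cKO libraries and 57.9 to 70.7 CPM in control libraries. Among the endothelial markers Egfl7 fell (14.8 CPM in cKO and 53.3 CPM in control cells), while Plvap had 8.64 CPM in cKO and 8.69 CPM in control cells, and Pecam1 and Cdh5 had at most 11 counts in any library. Tek had 29, 29 and 0 counts in cKO libraries and 0, 6 and 0 counts in control libraries. The part of these cell types in the values of the defence genes was not tested.

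**Figure D5:**
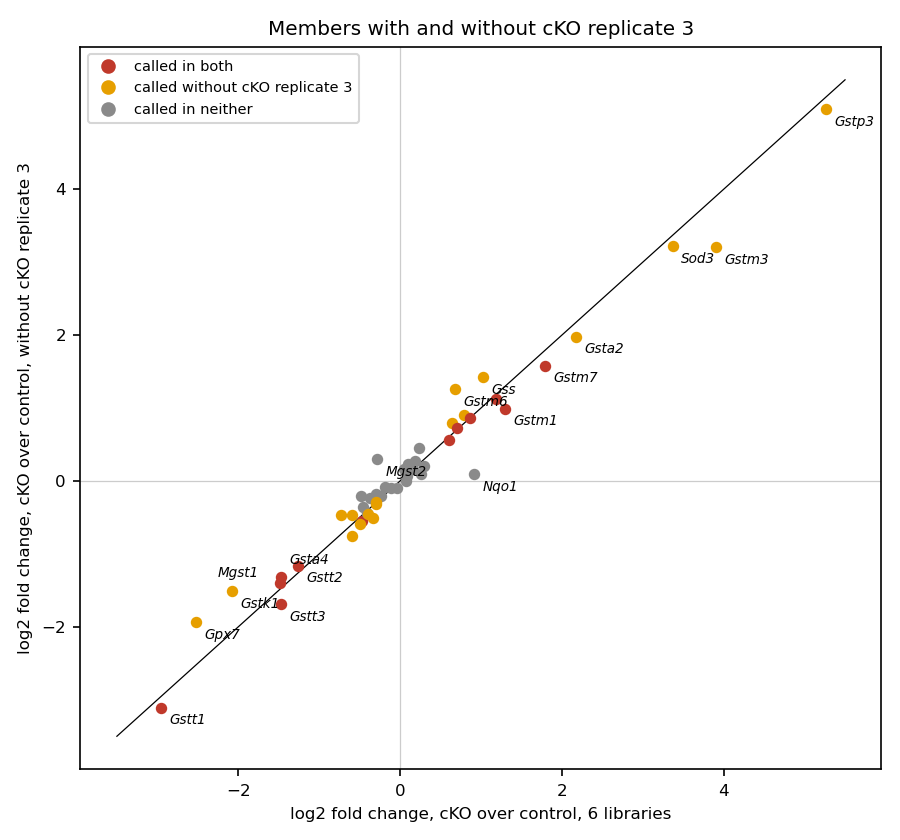
Log2 fold change of cKO over control with 6 libraries (x axis) and without cKO replicate 3 (y axis) for the 50 genes tested with all libraries, with the line of equality. The genes farthest from the line are Nqo1 (0.92 with 6 libraries and 0.09 without the library) and Gstm3 (3.90 and 3.21).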

How the data were processed

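Libraries were made with a TruSeq Stranded mRNA kit from sorted ureteric bud cells, per the labels' protocols. The authors deposited raw read counts per gene and FPKM values, 1 column per library. The submitters' processing notes list HISAT2, HTSeq, Cufflinks, DESeq and GRCm39, but give neither version nor role. The deposited FPKM values are the same counts after scaling by gene length and library (largest relative deviation 2.21e-07), so they are no independent measurement. They were used to compare levels between genes.

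Counts were fitted with edgeR 4.0.16 in R 4.3.3 (filterByExpr, TMM factors, robust quasi-likelihood F-test, group as the only term), with Benjamini-Hochberg adjustment over all 13047 genes kept. SE is the size of the log2 fold change over the root of its F statistic. CPM values are scaled by TMM factors, and 3 counts, the floor for a gene at 0, are 0.285 to 0.307 CPM in 1 library. Whether groups overlapped was judged on CPM. Such floors cover counting error only. DESeq2 1.42.0 and limma 3.58.1 served as alternatives. The steps were tested on simulated counts. No pair of replicates agreed within counting error (chi-square over its degrees of freedom, 10.2 to 75.6).

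The genes and lists were chosen with earlier results of these data known. Called genes were described in every library; others named were the most abundant and the smallest p of each role, those called without cKO replicate 3, those untested, and the called genes of each list. Neighbouring genes and Acss2 were chosen after values were seen. Identifiers matched RefSeq for 17094 of 17189 genes. Shared 50-base windows came from GENCODE M21 transcripts. Protein sequences were not analysed here.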

Additional observations from a re-analysis of the deposited data

How the results depend on the processing

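Among the defence genes, 6 rose and 6 fell with edgeR on 6 libraries. These numbers were 11 and 12 with DESeq2, and 13 and 16 with limma-voom and sample quality weights. Rises numbered 11 with limma on log2(FPKM + 1), 10 on log2(FPKM + 0.1) and 10 on log2(FPKM + 1) without a filter, and falls 7, 5 and 5. With RLE or upper-quartile factors, no filter, a stricter filter or limma-voom, 6 rose and 5 or 6 fell. With 1 library left out, 0 to 16 rose and 2 to 16 fell. The 16 and 16 were those without cKO replicate 3, and the next highest numbers were 2 rises without cKO replicate 1 and 5 falls without cKO replicate 2. Over all genes, 928 calls became 2172 with DESeq2, 3337 with quality weights, 1465 with limma on log2(FPKM + 1), and 121 to 3897 with 1 library left out. With the replicate number as a block (replicate block), 0 members rose, 0 fell and 23 genes were called in all. The labels do not say that numbers pair libraries, and the deviations of same-numbered libraries from their group means correlated at -0.0220, 0.0250 and -0.00145, and of the cKO libraries only replicate 2 correlated best with its own number. None of the 12 called genes changed sign under any alternative. Signs turned only for uncalled genes: Gstm6 (-1.45 with limma-voom, -0.85 on log2(FPKM + 0.1), -0.34 with the block, and -0.03 to 1.26 with 1 library left out), Mgst2 (0.56 with quality weights, and -1.46 to 0.30 with 1 library left out), Gpx1 (-0.04 to 0.17), Gsto2 (-0.25 to 0.45) and Txnrd2 (-0.12 to 0.24) with 1 library left out. Over the 7 lists of other pathway genes, calls without cKO replicate 3 were also the most numerous among tests leaving out a library. The causes were not tested. At this depth a gene at 0 can be read only down to 0.285 to 0.307 CPM, the level of 3 counts in 1 library. The 1 call lost with upper-quartile factors, without a filter, on log2(FPKM + 0.1) and on log2(FPKM + 1) without a filter was that of Gsr.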
